A study of Lachancea kluyveri with 9 samples.

Results

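The genes described here are 44 of the 5189 gene models of the budding yeast Lachancea kluyveri, selected on their own RNA levels, which stood higher in a/alpha cells than in both haploid cell types. Counts were divided by median-of-ratios size factors, which bring the libraries to 1 scale and give a normalised count. A model was taken when the mean in a/alpha cells plus 10 was at least 75% above the mean plus 10 of each haploid type, and when its 3 a/alpha values all lay above its 6 haploid values. That is 0.848% of all models, and the 3 a/alpha values lay above all 6 haploid values in 266 models, or 5.13%. The same a/alpha and haploid values chose the members, so the higher level in a/alpha cells is given below as a description and was not tested. In bulk RNA, a higher level in some cells of a culture and in all of them cannot be told apart.

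The series concerns the repression of haploid-specific genes in a/alpha cells, and the genes here are those whose levels go the other way. Poly(A) RNA was sequenced from a cells (strain yLB76), alpha cells (strain yLB77) and a/alpha cells (strain FDy22), with 3 libraries each. All 3 strains are labelled as wild-type prototrophs, and cultures were grown in YPED at 30 °C from an optical density of 0.1 to between 0.5 and 1. Each cell type was 1 strain, so strain and cell type cannot be told apart, and the labels do not give the ploidy of any strain. The libraries hold between 6379488 and 10776548 counts, except a/alpha replicate 1, with 743244, in which 1 read is worth 8.44 normalised counts. The library kit marks strand, and the reads were counted with strand setting 1 per the file headers, which takes reads on a model's own strand. Kits of this kind usually give reads antisense to the RNA, and whether the setting matched the reads was not tested, so the strand behind every count below is uncertain. In the first 1 Mb of chromosome C, levels also differed between libraries of the same cell type, and were highest in a replicate 1.

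In Saccharomyces cerevisiae and related yeasts, a and alpha cells each express the regulators of a single mating type, and an a/alpha cell, made by mating, holds both sets. There an a1-alpha2 heterodimer represses the haploid-specific genes, which serve mating and its signalling. The heterodimer is known as a repressor, and in S. cerevisiae the genes known to come on in a/alpha cells do so at a remove. Repression of RME1, which blocks entry into meiosis, lets the meiotic inducer IME1 be expressed there, and the sense RNA of IME4 is made when its antisense RNA is repressed. The L. kluyveri models carry no gene names in the files, so no role is given to any member, and the labelled cell types were not checked against mating-type genes. Each member is named by its position in the deposited table, for which the sources used here give no genome build.

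The smaller of the 2 ratios had a median of 2.17, and a few members lay far above it. Of the 44, 30 had both ratios at 2 or more, 12 at 3 or more, 4 at 4 or more and 3 at 6 or more. The median ratio was 2.52 over a cells and 2.47 over alpha cells, against 0.995 and 0.992 over all models. In 8 members the lowest a/alpha value was at least 2 times the highest haploid value, with 10 added to both, and in 12 it was less than 25% above it. The number of members was 81 without a replicate 1, of which 44 were the same models, and it lay between 40 and 57 without any other single library. With a/alpha replicate 1 left out, 32 of the 44 were still members and 14 others joined.

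**Figure D1:**
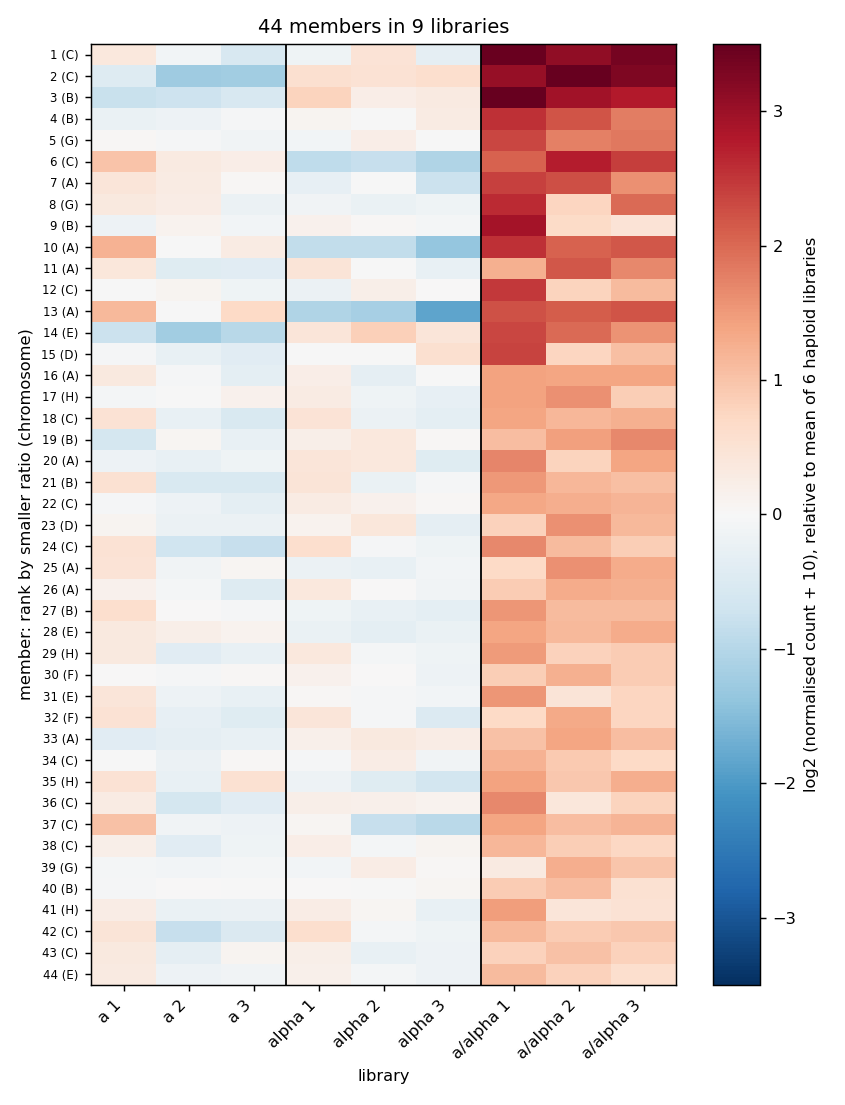
Colour gives log2 of the normalised count plus 10 relative to the mean of the 6 haploid libraries, for 44 members (rows, by the smaller of the 2 ratios, with the chromosome letter) in 9 libraries (columns). The 3 a/alpha columns are above all haploid columns in every row, as the rule requires, and some rows differ between the a and the alpha columns.

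**Figure D2:**
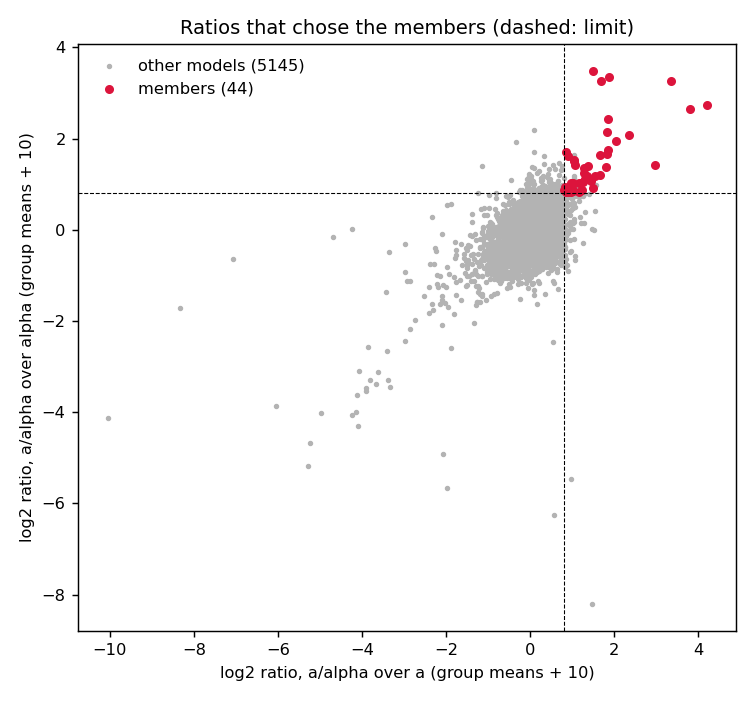
Each point is a gene model, placed by the log2 ratio of a/alpha over a (x axis) and of a/alpha over alpha (y axis), from group means plus 10; dashed lines mark the limit of 75% above. The 44 members (red) fill the upper right corner, which also holds 7 grey models whose a/alpha values overlap haploid ones.

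The model with the largest smaller ratio was augustus_masked-SAKL0C-processed-gene-0.20, at 24781 to 28587 on the minus strand of chromosome C, with 3807 bp of coding length. Its normalised counts were 421, 303 and 217 in a replicates 1, 2 and 3, and 289.8, 457 and 259 in alpha. In a/alpha cells they were 3638, 2857 and 3392. The haploid types overlapped each other and lay far below every a/alpha library, with ratios of 10.2 over a and 9.57 over alpha. This model lies 21765 bp inside the outermost model of its chromosome arm, and the next model towards the centre, from 32169 to 33848, is not a member.

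Next came augustus_masked-SAKL0C-processed-gene-5.23, at 513161 to 513481 and also on the minus strand of chromosome C, a short model of 321 bp. Its values were 66.8, 33.9 and 35.0 in a cells, 144, 139 and 147 in alpha cells, and 861, 1158 and 1004 in a/alpha cells. The levels formed 3 steps that did not overlap, lowest in a and highest in a/alpha cells, with ratios of 18.4 over a and 6.63 over alpha.

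The chromosome B model at 126269 to 127114, on the plus strand, showed the same 3 steps. It was at 13.2, 13.7 and 16.9 normalised counts in a cells, at 57.4, 36.8 and 39.2 in alpha cells and at 447, 292 and 259 in a/alpha cells. Its ratios were 13.9 over a and 6.29 over alpha. The next member on its left, a plus-strand model from 122306 to 123712, ends 2556 bp before it and stood higher, with a mean of 2019 normalised counts per kb in a/alpha cells against 393 per kb. That neighbour was at 1699, 813 and 804 in a, 1599, 998 and 1154 in alpha, against 3419, 2645 and 2459 in a/alpha cells, and its haploid types overlapped. Another member of this stretch, from 139873 to 141252, was scarce throughout, at 4.12, 4.85 and 4.38 in a, 4.63, 4.38 and 5.35 in alpha, against 16.9, 20.8 and 11.2 in a/alpha cells. Only 2 reads stood behind its value in a/alpha replicate 1.

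The chromosome B model from 361438 to 362559 was nearly silent in the haploid types. It was at 7.42, 8.08 and 10.0 normalised counts in a cells and at 12.0, 10.5 and 15.2 in alpha cells, and at 109.7, 84.3 and 60.6 in a/alpha cells. Every a/alpha library lay far above every haploid one, with ratios of 5.13 over a and 4.20 over alpha. The next model on its left, from 359144 to 359323 on the opposite strand and 2114 bp away, was lower in a/alpha than in haploid cells. That short model was at 135, 192 and 142 in a, 199.98, 288 and 301 in alpha, against 59.1, 21.9 and 25.7 in a/alpha cells.

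On chromosome C the plus-strand model from 350495 to 351358 was at 337, 209 and 195 normalised counts in a cells. In alpha cells it was at 84.3, 90.2 and 74.9, and in a/alpha cells at 726, 1160.2 and 933. Here a cells stood between alpha and a/alpha cells, and the ratios were 3.69 over a and 10.2 over alpha. The next model on its left, from 348996 to 350213 on the same strand, ends 281 bp before it and was lower in a/alpha than in haploid cells. It was at 377, 357 and 375 in a, at 252, 222 and 207 in alpha, and at 42.2, 44.4 and 40.2 in a/alpha cells. By the same limits in the other direction, 100 models were low in a/alpha cells, or 1.93% of all models, and this neighbour and the one on chromosome B are among them.

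Other members of high rank were scarce or uneven. A chromosome G model of 2 coding parts from 4170 to 11697, the outermost on its arm, was at 4.12, 3.23 and 2.50 normalised counts in a and at 2.78, 6.13 and 3.57 in alpha cells. It was at 59.1, 36.4 and 39.5 in a/alpha cells, where 7, 63 and 60 reads were counted. The chromosome A model from 203500 to 206955 was at 74.2, 67.1 and 55.03 in a, 41.7, 52.5 and 27.6 in alpha, against 321, 289.8 and 179 in a/alpha cells, with the a values all above the alpha values. A chromosome G model from 1007037 to 1009616 was at 115, 108 and 76.9 in a, 81.5, 75.3 and 79.3 in alpha, against 599, 156 and 383 in a/alpha cells. The a/alpha libraries lay above both haploid types but differed widely from each other, and replicate 2 was much the lowest.

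In 12 members the 95% Poisson interval (exact) of the shallow a/alpha replicate 1 lay above both other a/alpha libraries. The interval leaves out the counting error of those other libraries. The share over all models was not counted. A high a/alpha replicate 1 raises the mean that the rule takes, so the 12 are given as a description. Without a/alpha replicate 1, 12 members dropped out, and 7 were in both groups. The outermost model of chromosome B, from 1113603 to 1115060, was at 76.0, 8.08 and 5.93 normalised counts in a/alpha cells, from 9, 14 and 9 reads. The interval of its replicate 1 value ran from 34.7 to 144, which covers counting error only. It was at 0, 2.42 and 0.625 in a and at 2.78, 1.751 and 0.891 in alpha cells. Its smaller ratio was 3.39 with all libraries and 1.55 without that a/alpha library. The outermost model of chromosome C, from 1248964 to 1249908, was at 59.1, 11.5 and 17.1 in a/alpha cells and at most 4.38 in haploid libraries. A chromosome D model from 360013 to 361524 was at 101, 26.0 and 34.9 in a/alpha cells and between 6.25 and 21.4 in haploid libraries. Without a/alpha replicate 1 the smaller ratio was 2.13 in place of 3.10 for the chromosome C model, which remained a member. For the chromosome D model it was 1.71 in place of 2.60, under the limit. Among those that dropped out were also chromosome H and E models from 1886004 to 1887812 and from 773970 to 775352. In a/alpha cells the first was at 144, 64.6 and 69.2, against 36.6 to 57.4 in haploid libraries, and the second at 321, 144 and 179.9, against 83.8 to 140.2. A chromosome C model from 837984 to 839363, at 50.6, 15.01 and 22.4 in a/alpha cells with 6 reads in replicate 1, dropped out too.

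**Figure D3:**
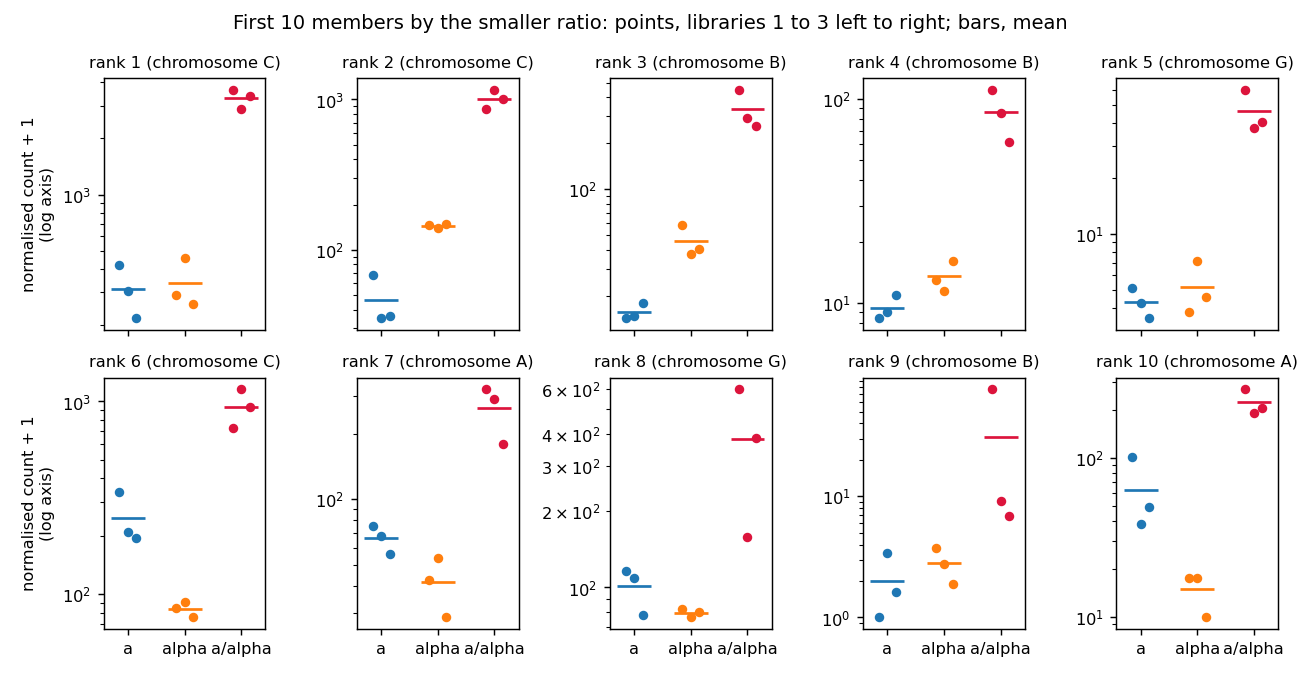
Normalised counts plus 1 on a log axis for the first 10 members by the smaller ratio, in a (blue), alpha (orange) and a/alpha cells (red), with replicates 1 to 3 from left to right and a bar at the mean. The member of rank 9 on chromosome B has a single high a/alpha library, at 76.0, and the member of rank 1 has all 3 between 2857 and 3638.

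Levels ran over a wide range. Per kb of coding length, the mean normalised count in a/alpha cells went from 11.8 to 12041 among members, with a median of 321 per kb. The medians in a and alpha cells were 108 and 92.1 per kb, against medians of 211, 204 and 202 per kb in a, alpha and a/alpha cells over all models. In haploid cells the medians of the members were below those of all models, and in a/alpha cells the median was above. The rule favours low haploid and high a/alpha values, so this is a description. Both haploid means were under 10 normalised counts in 6 members.

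The highest level per kb in a/alpha cells was that of a short minus-strand model on chromosome H from 896848 to 897225, at 12041 per kb against 6433 in a and 3924 in alpha cells. Its values were 2788, 1645 and 2862 normalised counts in a, 1739, 1471 and 1241 in alpha, against 5199.8, 3754 and 4701 in a/alpha cells. A plus-strand model on chromosome C from 116567 to 117931 followed, at 10324 per kb in a/alpha cells. It was at 12274, 5562 and 5330.1 in a, 6357, 3444 and 3102 in alpha, against 15810.3, 12836 and 13631 in a/alpha cells. Its a replicate 1 came within a small margin of the lowest a/alpha library. Replicate 1 was the highest a library for all 11 members of the first 1 Mb of chromosome C. The same held for 421 of 446 models of that region (94.4%) with a mean of at least 10 normalised counts. After the short chromosome C model from 513161, at 3139 per kb, came the chromosome F model from 185574 to 187067, at 2474 per kb in a/alpha cells and at 1222 and 1220 per kb in a and alpha cells. Its values were 1844, 1762 and 1869.7 in a, 2006, 1845 and 1614 in alpha, against 3326, 4362 and 3401 in a/alpha cells, and a and alpha cells overlapped.

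The lowest levels per kb in a/alpha cells were those of the chromosome B model from 139873 to 141252, at 11.8, the chromosome G model from 4170 to 11697, at 17.9, and the last model of chromosome B, at 20.6. Together the 44 members took 0.359% ± 0.120 of the counts of a libraries, 0.218% ± 0.0643 of those of alpha libraries and 0.712% ± 0.0284 of those of a/alpha libraries (SD, n = 3). The abundant chromosome C model from 116567 to 117931 supplied 39.6% of the members' reads in a libraries, 28.4% of those in alpha libraries and 31.1% of those in a/alpha libraries. Without it the shares of all counts were 0.214%, 0.155% and 0.484%.

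At the limit itself, the last member inside was a chromosome E model from 1014281 to 1015786, with ratios of 1.76 over a and 1.82 over alpha. It was at 253, 175 and 183 normalised counts in a, 226, 189 and 176 in alpha, against 439, 357 and 304 in a/alpha cells. Just inside too were chromosome C models from 462922 to 463251, with ratios of 1.77 and 1.92, and from 426127 to 427975, with 2.25 and 1.77. The first of these was at 168, 103 and 139 in a, 154, 107 and 116 in alpha, against 236, 279 and 235 in a/alpha cells. Just outside were chromosome C models from 37532 to 38623 and from 160248 to 161245, whose smaller ratios were 1.749 and 1.73, and a chromosome E model from 138256 to 139152, at 1.72. The model from 37532 was at 156, 79.99 and 86.3 in a, 110.2, 74.4 and 64.2 in alpha, against 203, 202 and 181 in a/alpha cells, much like the last members. The model from 160248 was at 338, 219 and 191 in a, 231, 209 and 218 in alpha, against 456, 479.7 and 381 in a/alpha cells. The one on chromosome E was at 1173, 1084 and 1108 in a, 1488, 1779.6 and 1959 in alpha, against 2541, 3552 and 2923 in a/alpha cells.

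The comparison of a with alpha cells was not used to choose the members and was tested. With edgeR's quasi-likelihood test and Benjamini-Hochberg adjustment over 5042 models, 9 of the 43 members tested passed an adjusted p of 0.05, 5 higher in a and 4 higher in alpha cells. That is 20.9% of them, against 17.9% of all models tested, so the share lies near the background at this threshold. At an adjusted p of 0.01, 6 of the 43 members and 374 of the 5042 models passed. Of the 43, 4 had at most 12 reads in any haploid library and passed the filter on low counts only through the a/alpha libraries, and none of the 9 is among them. The other 39 had 23.1% called. By direction the background was 8.05% higher in a and 9.9% higher in alpha cells. Over all models the 905 calls were 588, 486 and 427 without a replicate 2, alpha replicate 2 and alpha replicate 3. Upper-quartile size factors made the split of members 6 and 3, and that of all models 630 and 369 in place of 406 and 499. With a replicate block, which pairs a and alpha libraries of the same number, 14 of 39 members tested passed, 9 higher in a and 5 higher in alpha cells. That is 35.9%, against 43.6% of all models in that fit.

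A small group of members differed strongly between the haploid types. Higher in a cells was an overlapping pair at the end of chromosome A. Its minus-strand model from 930346 to 931182 was at 124, 50.1 and 88.8 normalised counts in a, 19.4, 17.5 and 7.13 in alpha, against 279, 253 and 271 in a/alpha cells. The a over alpha log2 fold change was 2.59 ± 0.37 (SE), with an adjusted p of 0.000744 by edgeR's quasi-likelihood test. The plus-strand model inside it, from 930830 to 931132, was at 101, 37.2 and 48.1 in a, 16.7, 16.6 and 8.91 in alpha, against 270.1, 191 and 206 in a/alpha cells. For this model the log2 fold change was 2.14 ± 0.39, with an adjusted p of 0.00293 by edgeR. In both, the a values lay between the alpha and the a/alpha values without overlap. The chromosome C model from 350495 to 351358, described above, was also higher in a cells, by 1.59 ± 0.24 on the log2 scale (edgeR adjusted p = 0.00104).

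Higher in alpha than in a cells were the chromosome C model from 513161 to 513481 and the chromosome B model from 126269 to 127114, with log2 a over alpha of -1.66 ± 0.24 and -1.57 ± 0.29. Their adjusted p-values by edgeR were 0.000865 and 0.00324. A chromosome E model from 710920 to 711582 had the largest difference on this side, at -1.82 ± 0.26 (edgeR adjusted p = 0.000695). It was at 33.8, 21.8 and 27.5 normalised counts in a, 88.0, 122 and 88.3 in alpha, against 363, 283 and 208 in a/alpha cells. These 6 calls held in every alternative fit in which the model was tested.

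The other 3 calls were smaller, and each was lost in 4 or more of 16 alternative fits. The chromosome E model from 1073406 to 1076513 was at 379, 349.9 and 325 normalised counts in a, 253, 235 and 255 in alpha, against 802, 666 and 748 in a/alpha cells. Its log2 a over alpha was 0.52 ± 0.15 with an edgeR adjusted p of 0.0269, which ran from 0.00264 to 0.102 and missed the threshold without a replicate 1 or 2 or alpha replicate 2 or 3. The chromosome A model from 9041 to 9973 was at 302, 323 and 338 in a, 453, 516 and 483 in alpha, against 827, 1066 and 868 in a/alpha cells, with a log2 fold change of -0.57 ± 0.15 and an edgeR adjusted p of 0.0206. That p ran from 0.000668 to 0.0822 and missed the threshold without those same libraries and with upper-quartile factors. For the short chromosome H model from 896848 to 897225 the a and alpha values overlapped. The log2 fold change was 0.73 ± 0.22, and the edgeR adjusted p of 0.0402 ran from 0.00163 to 0.155. It missed the threshold without a replicate 1 or 3, alpha replicate 2 or 3, or a/alpha replicate 1 or 3, and in a fit of a and alpha libraries alone.

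For the other 34 members tested, a difference between a and alpha cells did not pass the test, which does not show equal levels. Over the 43 members, the median log2 a over alpha was -0.08, against 0.05 over all models, and it was -0.29 without a replicate 1. The median absolute difference was 0.35 against 0.31 over all models, and 36 members lay within 1 log2 unit of equality. The median SE was 0.28 for members and 0.20 for all models. Without the 4 members that passed the filter only through a/alpha libraries, the 3 medians of members were -0.08, 0.35 and 0.26. The a and alpha values did not overlap in 13 of 43 members, 6 with a above alpha and 7 with alpha above a, against 34.2% of all models tested. The last model of chromosome B did not pass the filter on low counts and was not tested.

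**Figure D4:**
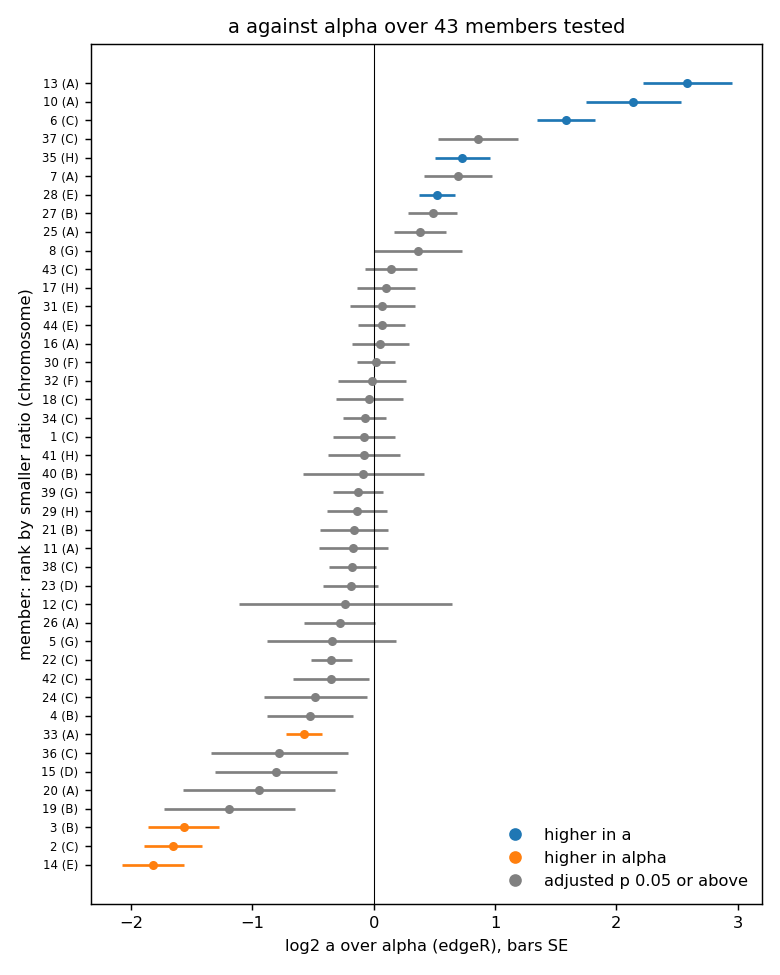
Log2 a over alpha from edgeR (points) with its SE (bars) for the 43 members tested, labelled by rank and chromosome, with calls higher in a in blue, calls higher in alpha in orange and others in grey. The 6 largest called differences, from -1.82 to -1.57 and from 1.59 to 2.59, are the points farthest from 0. On the alpha side, the grey member of rank 19 lies at -1.19 with an SE of 0.54, and its bar reaches the called values.

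Some chromosomes held a larger share of the members than of all models, and others a smaller one. Chromosome C held 13 (29.5%, against 11.1% of all models), chromosome A 9 (20.5% against 8.71%) and chromosome B 7 (15.9% against 9.62%). The large chromosomes G and H held 3 and 4, or 6.82% and 9.09%, against 15.8% and 19.6% of all models. The first 1 Mb of chromosome C held 11 members, or 25% against 8.92% of all models. In that region levels differed between libraries, as said, and the median log2 deviation of its models was 0.62 in a replicate 1, between -0.43 and 0.08 in the other haploid libraries and between 0.15 and 0.30 in a/alpha cells. The part of this shift in the 11 members was not tested, and 33 members lay elsewhere. Of the models low in a/alpha cells, 13 of 100 lay in this first 1 Mb.

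A larger share of members than of all models also lay near chromosome ends. Within 30 kb of the outermost model of an arm lay 11 members, or 25%, against 3.49% of all models and 8.0% of models low in a/alpha cells. Of the 11, 5 belong to a single stretch at the right end of chromosome A and 6 lie on other arms, so the members are not independent places. Those 6 were the models of chromosome C from 24781 and from 1248964, of chromosome G from 4170, of chromosome B from 5700 and from 1113603, and of chromosome A from 9041. In 3 cases the member was itself the outermost model, among 16 chromosome ends. The chromosome B model from 5700 to 6476 was at 0.824, 7.27 and 3.75 normalised counts in a, 9.26, 11.4 and 7.13 in alpha, against 25.3, 34.6 and 43.5 in a/alpha cells.

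The stretch at the end of chromosome A spanned 13.9 kb and held 5 members among 9 models. Besides the overlapping pair it held a minus-strand model from 932882 to 933841, at 269.6, 149 and 151 normalised counts in a, 279.6, 201 and 167 in alpha, against 498, 948 and 670.1 in a/alpha cells. A plus-strand model of 2 coding parts, from 934819 to 935423, starts 977 bp from it on the diverging side and was at 31.3, 25.05 and 16.9 in a, 38.0, 27.1 and 24.1 in alpha, against 59.1, 80.8 and 78.4 in a/alpha cells. The next model, from 937609 to 938535, was not a member, at 657, 397 and 375 in a, 872, 568 and 536 in alpha, against 633, 1531 and 1102 in a/alpha cells, with a/alpha replicate 1 below haploid libraries. After it came 3 models with hardly a read in any cell type. The fifth member, of 3 coding parts, from 942782 to 944293, was at 4.12, 3.23 and 4.38 in a, 11.1, 10.5 and 1.78 in alpha, against 42.2, 17.3 and 31.6 in a/alpha cells. On the left of the stretch the model from 928213 to 929439 had ratios of 1.04 over a and 2.11 over alpha, and that from 925666 to 927210 had 1.36 and 2.51. Neither met the limits of the rule.

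**Figure D5:**
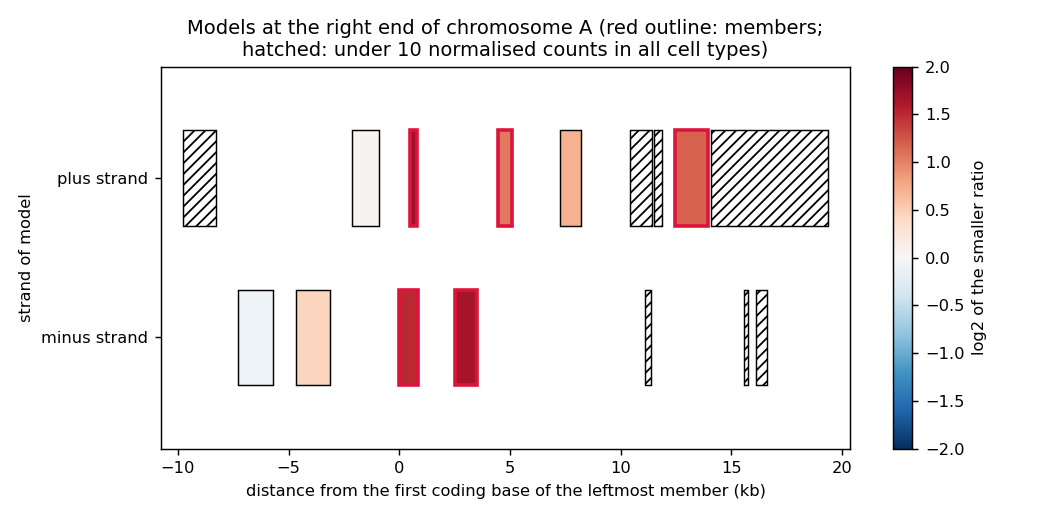
Gene models at the right end of chromosome A by strand, with distance in kb from the leftmost member on the x axis; colour gives log2 of the smaller of the 2 ratios, red outlines mark members and hatching marks models under 10 normalised counts in all cell types. The 5 members lie within 13.9 kb. Between the fourth and the fifth lie the abundant non-member from 937609 to 938535 and non-members of low count.

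Members elsewhere stood mostly alone. With members within 20 kb of each other joined, the 44 fell into 35 places, 5 of which held 14 members. Over all 44 members, the chromosome A stretch included, there are 85 neighbouring positions. Of these, 10 (11.8%) hold another member, against 0.848% of all models. A model with all a/alpha values above all haploid values is held by 16 (18.8%), against 5.13%. Adjacent members are counted from both sides, so the 10 positions are not independent. Most of the 10 lie in the chromosome A stretch, and the overlapping pairs of chromosomes A and C are among them. Without the members, 6 of 75 neighbours (8.0%) had all a/alpha values above all haploid values. The median ratios of these 75 neighbours were 1.10 over a and 1.09 over alpha, against 0.995 and 0.992 over all models. Models low in a/alpha cells filled 2 of the 85 positions (2.35%), near their share of all models (1.93%).

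In median coding length and in the share with several coding parts, the members were much like other models. The median coding length was 1329 bp against 1257 bp for all models, and it ran from 201 to 9015 bp. Coding lengths under 400 bp were found in 5 members (11.4% against 8.52%), and several coding parts in 6 (13.6% against 13.7%). Coding lengths over 2000 bp were less common, in 7 members (15.9% against 23.5%). The longest was a chromosome H model of 2 coding parts from 1858474 to 1867561, at 156 ± 48.6 normalised counts in a, 174 ± 38.0 in alpha, against 364 ± 102 in a/alpha cells (SD, n = 3). The plus strand held 23 members and the minus strand the rest.

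Overlap with a model on the opposite strand was found in 4 members, or 9.09% against 2.68% of all models, and here the counts also depend on how reads were split between partners. They form the pair at the end of chromosome A and a pair on chromosome C, where a plus-strand model of 201 bp from 426542 to 426742 lies inside the minus-strand model from 426127 to 427975. The short one was at 61.8, 21.0 and 18.8 normalised counts in a, 66.7, 39.4 and 35.7 in alpha, against 152, 99.3 and 81.0 in a/alpha cells. The long one was at 215, 83.2 and 104 in a, 235, 147 and 136 in alpha, against 346, 293 and 304 in a/alpha cells. All 4 were chosen for the same order of libraries, so a likeness of their profiles over the 9 libraries is largely fixed by the rule.

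Per kb, the nested model of these pairs stood at 2.23 and 2.76 times the level of the model around it. This was general: among 45 opposite-strand pairs with at least 90% of the shorter model inside the longer, the shorter was higher per kb in 43, with a median of 2.23 times. Across these pairs the log2 levels of the partners correlated by 0.91, and the median correlation of partners over the 9 libraries was 0.80. Partners share the reads' place, and the values compared were already divided by the size factors. Partners were counted by strand, but whether the strand setting matched the reads was not tested. Which partner's RNA stands behind a count is therefore uncertain.

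Replicates lay farther apart for members than for models at large. The same values chose the members, whose median haploid levels were lower than those of all models. The difference in spread is therefore a description and was not tested. The coefficient of variation over the 3 a/alpha libraries had a median of 25.5% in members and 14.9% in all models, and in a and alpha cells the medians were 26.6% and 21.9% against 16.2% in both. It was lowest in the chromosome A model from 826395 to 827114, at 177, 174 and 175 normalised counts in a/alpha cells, or 0.926%. That model was at 79.97, 58.98 and 45.6 in a and at 72.2, 47.3 and 59.7 in alpha cells. The chromosome C model from 902572 to 903510 was also even, with 5.97%, at 321, 305 and 285 in a/alpha cells, 116, 105 and 91.9 in a and 147, 133 and 123 in alpha cells.

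Replicate 1 was the highest a/alpha library in 30 of the 44 members (68.2%), against 40.5% of 5003 models with a mean of at least 10 normalised counts. It was also the highest a library in 31 members (70.5% against 41.1%) and the highest alpha library in 27 (61.4% against 37.8%). The rule used all these values, and a high a/alpha replicate 1 raises the a/alpha mean that it takes. These shares are therefore a description and were not tested. Outside the first 1 Mb of chromosome C, a replicate 1 was highest in 20 of 33 members (60.6% against 35.9%). In a/alpha replicate 1, 8 members rested on fewer than 10 reads, and in replicate 2 none did. The opposite order also occurred. A chromosome D model of 3 coding parts from 1227258 to 1231652 was at 473, 823 and 593 in a/alpha cells, 284, 230.3 and 228 in a and 292, 353 and 212 in alpha cells.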

How the data were processed

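The authors deposited whole-number counts of reads per gene model, made with featureCounts 2.0.1 from CDS features at strand setting 1, per the file headers. The alignment names there hold the words STAR and fastp. Of 14 alignments listed, 5 are not analysed here. Coding lengths in bp (another column) are also deposited. The authors' 2 tables of comparisons were not used. Libraries were grouped by the labels, 3 per cell type, and replicates are called biological in the column headers. The sequenced reads are 65 bp long.

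Normalised counts are counts divided by median-of-ratios size factors (Python 3.11.15, pandas 2.3.3). The a against alpha test used edgeR 4.0.16 in R 4.3.3 on all 9 libraries, with TMM factors, filterByExpr (5042 models kept, 147 left out) and Benjamini-Hochberg adjustment. Standard errors are the log2 fold change divided by the root of F, which is approximate. The fit was tested on simulated data. Alternatives were other size factors and constants, DESeq2 1.42.0, other filters and limits, a replicate block and leaving out each library, and 1 was added after seeing the data. Replicates differed by more than sampling noise (chi-square per degree of freedom 4.76 to 82.9). Intervals cover counting error only.

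Deviations from group means correlated by 0.75, 0.22 and 0.55 between a and alpha libraries of the same number, all above 0.1. Unlike numbers also passed 0.1, at 0.48 for a replicate 2 with alpha replicate 3 and 0.29 for a replicate 3 with alpha replicate 2. The other unlike pairs of a and alpha libraries lay between -0.65 and -0.32. The numbers thus do not clearly pair replicates 2 and 3. With a/alpha cells not every pair passed 0.1. The labels do not say what a number shares.

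The members, lists and regions were chosen with earlier results of these data known. Any member may be named. Full values are given for the 10 with the largest smaller ratio, those called in a against alpha, those beside or overlapping another member or a model low in a/alpha cells, and the extremes of level and limit. Some others were chosen after their values were seen. No list of named genes could be matched to the models.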

Additional observations from a re-analysis of the deposited data

Results flagged for a closer look

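In 9 members the excess in a/alpha cells was unlike over a and over alpha cells, by the a against alpha test itself (edgeR's quasi-likelihood test, adjusted p under 0.05). That is 20.9% of the 43 tested, near the 17.9% of all 5042 models. The log2 a over alpha values were 2.59 and 2.14 for the overlapping chromosome A models from 930346 to 931182 and from 930830 to 931132, and 1.59 for the chromosome C model from 350495 to 351358. They were 0.73 for the chromosome H model from 896848 to 897225 and 0.52 for the chromosome E model from 1073406 to 1076513. Where alpha was higher they were -1.82 for the chromosome E model from 710920 to 711582, -1.66 for the chromosome C model from 513161 to 513481, -1.57 on chromosome B (126269 to 127114) and -0.57 on chromosome A (9041 to 9973). Groups of 3 libraries were not tested for single outlying values.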

How the results depend on the processing

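The count of 44 members was 86 with a ratio limit of 1.5, 29 with 50 added in place of 10, and between 40 and 81 without single libraries, the highest without a replicate 1. Under the other settings it lay between 30 and 51. Of the 44, 21 were members under all 9 omissions of a library and 6 other settings (3 size factors, 2 constants, group medians). With a/alpha replicate 1 left out of the ratio alone, chosen after seeing the data, 35 models passed, 31 of them among the 44. Over single members and settings, 98 of 952 smaller ratios fell below the limits or lost the separation of the groups, and no ratio turned. Some of these settings, such as a ratio limit of 1.5 or no need of separation, could not remove a member. A limit of 2 changed no ratio, so 98 of 952 is not a measure of stability.

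With a replicate block in a fit of a and alpha libraries, 14 members in place of 9 (35.9% of 39), and 2189 models in place of 905 (43.6%), passed the a against alpha test. The additions included the models of chromosome A from 203500 and 814917, of chromosome B from 1037787 and of chromosome C from 116567 and 426127. Without single libraries, 6 to 10 members and 427 to 1206 of all models passed. At an adjusted p of 0.01, 6 of the 43 members tested and 374 of the 5042 models tested passed. The median log2 a over alpha of the members ran from -0.29 to 0.013 without single libraries. No called difference changed sign. Values behind few reads in a/alpha replicate 1 are limited by its depth.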

Other observations

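Another 7 models had both ratios at the limit with a/alpha values that overlapped haploid ones, 5 of them within the first 1 Mb of chromosome C. On chromosome A, the model at 588786 to 589685 had 203, 959 and 581 normalised counts in a/alpha cells, 178, 175 and 209 in a and 306, 323 and 234 in alpha cells, so that a/alpha replicate 1 lay with the haploid libraries. A chromosome D model from 63089 to 64798 was at 430.5, 118 and 239.8 in a/alpha cells and between 67.9 and 158 in haploid libraries. On chromosome C, the models from 425578 to 426430 and from 426773 to 427000 also overlap the member from 426127 to 427975 on the opposite strand. The first was at 414, 168 and 252 in a/alpha cells, 222, 62.2 and 63.8 in a and 165, 111 and 117 in alpha cells.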
